A study of Homo sapiens with 4 samples.

Results

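The Hippo pathway and its targets were followed through 10 genes in a list of N6-methyladenosine (m6A) positions from C643 cells: the kinases LATS1 and LATS2, the coactivators YAP1 and WWTR1, the DNA-binding factors TEAD1 and TEAD3, the angiomotin-like scaffolds AMOTL1 and AMOTL2, and the secreted target genes CCN1 and CCN2. A listed site was assigned to a gene when it lay in an annotated exon of it on the same strand. Of the 18789 listed sites, 24 met this rule, and they fell in 5 of the 10 genes. WWTR1 and TEAD3 held 2 sites each, AMOTL2 held 8, and CCN1 and CCN2 held 6 each. YAP1, TEAD1, LATS1, LATS2 and AMOTL1 held 0, and 0 sites lay in an intron of any of the 10 genes. Over all protein-coding genes, 3826 of 19183 (19.9%) had at least 1 listed exonic site.

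C643 is a line derived from an anaplastic thyroid carcinoma, and the cells were wild type and untreated. miCLIP2, which crosslinks an anti-m6A antibody to fragmented polyadenylated RNA and reads the crosslinked nucleotide from where the cDNA ends, was done in 3 biological replicates. The first replicate was sequenced as 2 technical libraries, so the single group comprised 4 libraries. The list pools them, with 1 prediction score per site and no value per replicate, so every number here is a description of 1 pooled list and no difference was tested.

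m6A is placed on messenger RNA by a nuclear methyltransferase complex at the consensus DRACH (D is A, G or T, R is A or G, H is A, C or T), most often near the stop codon and in long exons, and it can affect the stability and translation of the transcript. In the Hippo pathway, an upstream kinase cascade activates LATS1 and LATS2, which phosphorylate YAP1 and WWTR1 (TAZ) and keep them out of the nucleus. When the kinases are inactive, YAP1 and TAZ bind TEAD factors and switch on genes such as CCN1 (CYR61) and CCN2 (CTGF), which encode matricellular proteins. Angiomotin-like proteins bind YAP1 at cell junctions, and AMOTL2 is itself a target of the coactivators.

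The sequences around the sites that the results turn on are given first, so that the motif behind each score can be seen. They comprise the highest-scoring site of each of the 5 genes with sites, both member sites outside the consensus, and a further CCN1 site at the stop codon that was chosen after its values were seen. Each is the reference sequence of GRCh38 on the strand of the gene, 5' to 3', with the pentamer in capitals and the listed A as its middle base.
WWTR1, chr3:149520881-149520901, minus strand, score 0.863: tgacttagGAACTttggaatc
TEAD3, chr6:35475038-35475058, minus strand, score 0.707: ctcgtcaaAGACTagggtgcc
TEAD3, chr6:35474854-35474874, minus strand, score 0.545, not DRACH: ctgcgcttTAATTgtgggaga
AMOTL2, chr3:134357274-134357294, minus strand, score 0.866: caccaggtGGACTggttcact
CCN1, chr1:85583215-85583235, plus strand, score 0.921: gtgcggatGGACActaatgca
CCN1, chr1:85583028-85583048, plus strand, score 0.919: aaatttagGGACTaaatgcta
CCN2, chr6:131949210-131949230, minus strand, score 0.927: tggaacttGAACTgattcaca
CCN2, chr6:131949206-131949226, minus strand, score 0.505, not DRACH: acttgaacTGATTcacatctc
The last pair of windows overlap, because their sites were the closest neighbours among the member sites, 4 nt apart. In the TEAD3 window with AGACT and in the CCN1 window with GGACT, the final T of the pentamer is the first base of the stop codon.

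**Figure D1:**
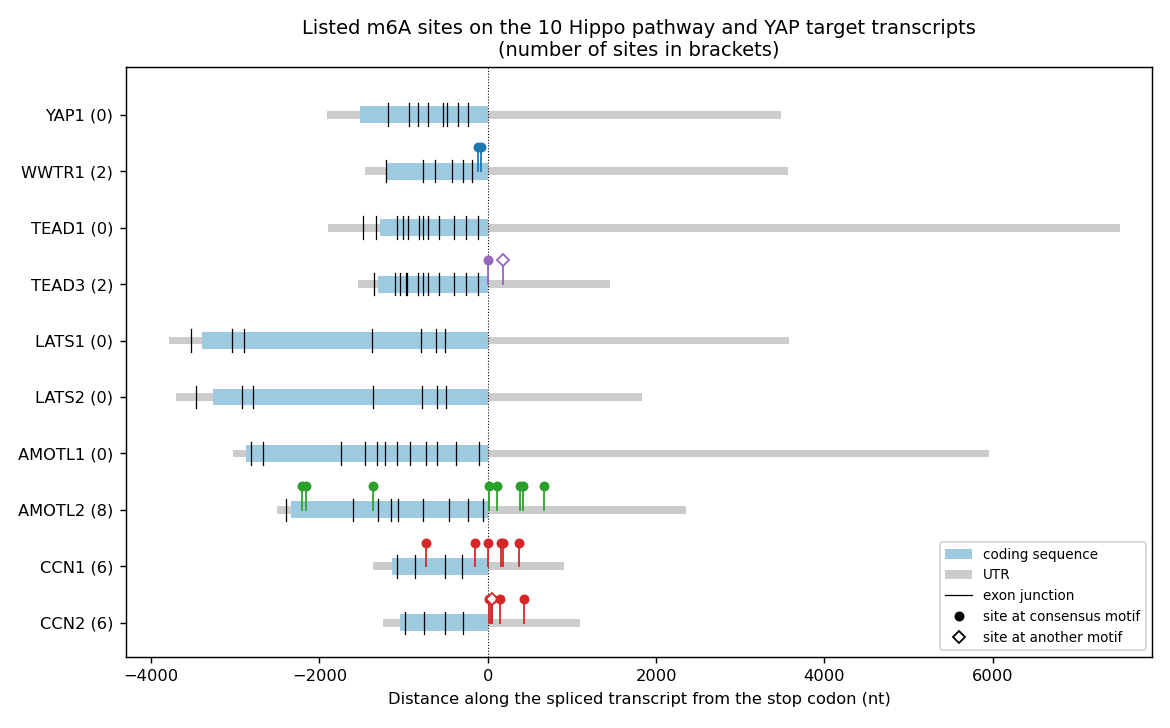
The spliced transcript chosen for each of the 10 genes, drawn to scale along the x axis in nt from the first base of the stop codon, with coding sequence in blue, UTRs in grey, exon junctions as black ticks and each listed site as a stem (filled circle for a consensus motif, open diamond for another motif; number of sites in brackets). The longest transcripts, TEAD1 and AMOTL1, carry 0 sites, and the short transcripts of CCN1 and CCN2 carry 6 each.

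The kinases were the only role with no listed site in either gene. LATS1 (ENSG00000131023.13, chr6:149658153-149718101, minus strand) spans 7362 nt in 8 exons, and its transcript holds 140 DRACH motifs, of which 84 are coding and 53 lie in the 3' UTR. LATS2 (ENSG00000150457.9, chr13:20973036-21061586, minus strand) spans 5546 nt and holds 112 motifs, 66 of them coding. None of these 252 motifs was listed, while AMOTL2, with fewer motifs (86) than either kinase, had 8 listed. The unlisted motifs of LATS1 included 8 GGACT, as did those of LATS2. Near the stop codon, defined as within 200 nt on either side, LATS1 has 5 motifs and LATS2 has 9. A list of positive calls cannot separate an unmodified motif from one in a transcript with too few reads, and expression was not analysed here.

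Of the coactivators, WWTR1 had 2 sites and YAP1 had 0. The genes have 3' UTRs of like length, 3570 nt in WWTR1 (ENSG00000018408.15, chr3:149517235-149658025, minus strand) and 3484 nt in YAP1 (ENSG00000137693.14, chr11:102110447-102233424, plus strand). Their transcripts also hold like numbers of consensus motifs, 92 and 94. Both WWTR1 sites were coding and lay in the last of 7 exons, at chr3:149520923 and chr3:149520891, which is 116 and 84 nt upstream of the stop codon and 67 and 99 nt from the preceding exon junction. The first had the pentamer TGACT and a score of 0.779, and the second had GAACT and 0.863. They were 32 nt apart, and 6 of the 12 annotated transcripts of the gene contain them, as coding sequence or as 3' UTR. The listed share in WWTR1 was 2 of 92 motifs, 2.17% with a 95% Wilson interval of 0.598% to 7.58%. All 63 motifs in the WWTR1 3' UTR and all 52 in that of YAP1 were absent from the list. YAP1 has 12 consensus motifs near the stop codon and WWTR1 has 16, of which 0 and 2 were listed.

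Among the TEAD factors, TEAD3 had 2 sites and TEAD1 had 0. TEAD1 (ENSG00000187079.20, chr11:12674421-12944737, plus strand) is the longest of the 10 transcripts at 9417 nt, with a 3' UTR of 7515 nt and 189 consensus motifs, none of them listed. TEAD3 (ENSG00000007866.22, chr6:35473597-35497079, minus strand) is shorter, at 2986 nt, and has 50 motifs, of which 1 was listed (2%, interval 0.354% to 10.5%). Both TEAD3 sites lay in the last of 13 exons. The site at chr6:35475048, shown above with AGACT, sat 2 nt before the stop codon of the chosen transcript and scored 0.707. It is contained in all 3 annotated transcripts, as coding sequence or as 3' UTR. The site at chr6:35474864 lay 182 nt downstream of the start of the stop codon, in the 3' UTR, with the pentamer TAATT and a score of 0.545. That pentamer lacks the C that follows the modified A in DRACH, and only 8.2% of all listed sites scored lower. In all coding transcripts with a site, 236 of 17493 sites (1.35%) had TT after the A, with a median score of 0.599, and TAATT itself was listed 3 times.

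The pairing of TEAD1, TEAD3 and CCN1 at the last sense codon was noticed after the values were seen. In all 3 genes that codon ends so that a consensus A lies 2 nt before the stop codon, with GGACT in TEAD1 and CCN1 and AGACT in TEAD3. It was listed in TEAD3 and CCN1 and not in TEAD1. Over all coding transcripts with a site, 93 of 197 such motifs (47.2%, interval 40.4% to 54.2%) were listed, 45 of 68 at GGACT and 12 of 32 at AGACT. TEAD1 has no listed site and is not among these transcripts, so the shares of this paragraph do not compare with it. Other consensus motifs that end in T within 50 nt of the stop codon were listed in 919 of 2168 cases (42.4%, 40.3% to 44.5%). On the coding side alone, the 50 nt before the stop codon gave 359 of 924 (38.9%, 35.8% to 42.0%), and the difference from the last codon was not tested.

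The angiomotin-like scaffolds were the pair with the greatest gap in site number. AMOTL1 (ENSG00000166025.18, chr11:94768356-94876748, plus strand) holds 199 consensus motifs, the most of the 10 genes, with 0 listed. AMOTL2 (ENSG00000114019.15, chr3:134355347-134374447, minus strand) holds 86, of which 8 were listed (9.30%, 4.79% to 17.3%). Its sites were the most widely spread of the 5 genes. They fell in the long exon 2, in exon 3 and in the 3' UTR, which lies in the last of 10 exons. Exon 2, 795 nt long, held GAACT at chr3:134371301 (score 0.779) and GGACA at chr3:134371249 (0.715), at 194 and 246 nt from the nearest junction and 2208 and 2156 nt before the stop codon. Exon 3, 307 nt long, held AGACA at chr3:134367558, 62 nt from a junction, with the lowest AMOTL2 score, 0.536.

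The 5 sites in the AMOTL2 3' UTR lay between 21 and 673 nt from the start of the stop codon. GGACT at chr3:134357686, 21 nt past it, scored 0.858, and GGACT at chr3:134357284, 423 nt past it and printed above, had the highest score of the gene, 0.866. The other 3 sites of the 3' UTR scored 0.724 (AGACA), 0.727 (GAACT) and 0.800 (AGACT). All 8 AMOTL2 sites were at DRACH, and only 2 of them lay within 200 nt of the stop codon. The coding sites of exon 2 are contained in 10 of 13 annotated transcripts and the exon 3 site is contained in 4.

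CCN1 and CCN2 had the highest site densities of the 10 genes, 2.63 and 2.57 sites per kb of spliced transcript. Of all coding transcripts with a site, 78.9% had a lower density than CCN1 and 77.8% a lower density than CCN2, whereas the same figure was 58.9% for AMOTL2, 26.1% for TEAD3 and 12.7% for WWTR1. In CCN1 (ENSG00000142871.18, chr1:85580761-85583950, plus strand) 6 of 42 consensus motifs were listed (14.3%, 6.72% to 27.8%). In CCN2 (ENSG00000118523.6, chr6:131948176-131951372, minus strand) the share was 5 of 51 (9.80%, 4.26% to 20.98%). Both transcripts have 5 exons and few motifs, and the intervals of the pair overlap.

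The CCN1 sites were divided equally between coding sequence and 3' UTR. In the coding sequence, GAACT at chr1:85582061 in exon 3 scored 0.735 and lay 733 nt before the stop codon, GGACT at chr1:85582884 in exon 5 scored 0.840 at 156 nt before it, and GGACT at chr1:85583038 scored 0.919 at 2 nt before it. In the 3' UTR, AAACT at chr1:85583199 scored 0.769 at 159 nt, GGACA at chr1:85583225 scored 0.921 at 185 nt, and GGACA at chr1:85583417 had the lowest score of the gene, 0.726, at 377 nt. The sites were thus strung along the last exon at gaps of 26 to 192 nt, with 1 site farther upstream. Exon 3 is contained with its site in all 6 annotated transcripts. Of the 5 GGACT motifs in CCN1, 2 were listed.

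In CCN2, by contrast, all 6 sites lay in the 3' UTR in exon 5, and 0 of its 19 coding motifs were listed. A run of 4 sites lay just past the stop codon. AGACA at chr6:131949247 scored 0.838 at 19 nt from the start of the stop codon, AGACT at chr6:131949232 scored 0.907 at 34 nt, GAACT at chr6:131949220 scored 0.927 at 46 nt, and TGATT at chr6:131949216 scored 0.505 at 50 nt. The run held the highest and the lowest score of all 24 member sites, 4 nt apart. Of all coding transcripts with a site, 292 of 3616 (8.08%, 7.23% to 9.01%) had 4 or more sites within 100 nt. CCN2 reached 4 only with the TGATT site, whose score lay near the list's lower limit of 0.50. Of the 5 consensus motifs in the first 60 nt past the start of the stop codon of CCN2, 3 were listed. The remaining sites were AAACA at chr6:131949120, 146 nt from the start of the stop codon with a score of 0.537, and AGACT at chr6:131948829, 437 nt from it with a score of 0.831. CCN2 contains no GGACT at all, so its high-scoring sites used other pentamers.

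**Figure D2:**
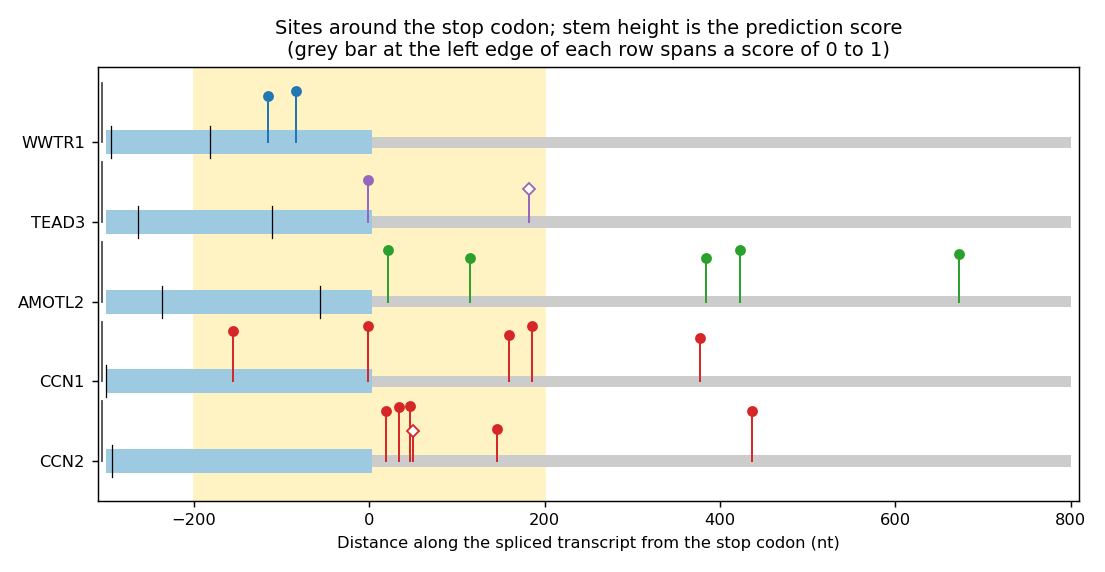
Sites from 300 nt before to 800 nt after the start of the stop codon (x axis, nt along the spliced transcript) in the 5 genes with sites, where the height of a stem is the prediction score on the 0 to 1 scale drawn at the left of each row, the shaded band spans 200 nt on either side and open diamonds are sites outside DRACH. CCN2 has 4 sites between 19 and 50 nt, WWTR1 has both of its sites before the stop codon, and 3 AMOTL2 sites lie beyond the band.

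Read by role, the share of consensus motifs listed ran from 0 of 252 in the LATS kinases through 1 of 239 in the TEAD factors (0.418%, 0.0739% to 2.33%), 2 of 186 in the coactivators (1.08%, 0.295% to 3.84%) and 8 of 285 in the angiomotin-like genes (2.81%, 1.43% to 5.44%) to 11 of 93 in the CCN genes (11.8%, 6.73% to 19.9%). The CCN interval did not overlap those of the other roles with sites. Each of those roles pools a gene with sites and a gene with 0, while both CCN genes had sites. Gene by gene, the intervals of the 5 genes with sites overlapped, from 0.598% to 7.58% in WWTR1 to 6.72% to 27.8% in CCN1. Over all 10 genes, 22 of 1055 motifs were listed (2.09%, 1.38% to 3.14%), and over the 5 genes with sites the share was 22 of 321 (6.85%). In coding transcripts with at least 1 site, 7.33% of DRACH motifs were listed, a background that leaves out transcripts with 0 sites and so compares with the second value and not with the first. The interval of each of the 5 genes with sites included 7.33%. Motifs of 1 transcript share its expression and are not independent, so these intervals cover counting error only.

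**Figure D3:**
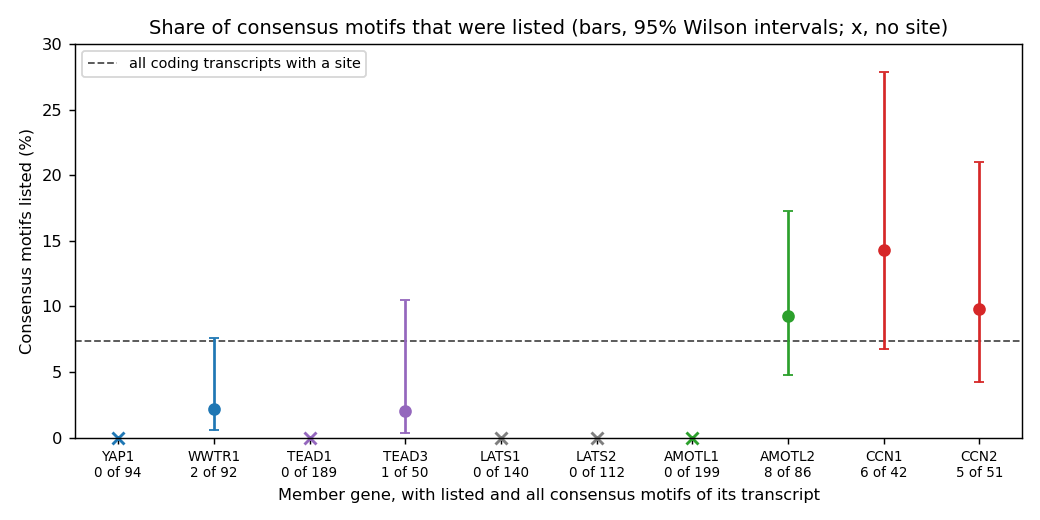
Percent of the consensus motifs in each transcript that were listed (y axis), with 95% Wilson intervals as bars, crosses for genes with 0 listed motifs and a dashed line at the 7.33% of all coding transcripts with a site. CCN1 stands highest at 14.3%, and the intervals of all 5 genes with sites cross the dashed line.

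By region, 15 of the 24 member sites lay in the 3' UTR (62.5%, 42.7% to 78.8%), 9 in the coding sequence (37.5%, 21.2% to 57.3%) and 0 in a 5' UTR. All coding transcripts with a site gave 55.4%, 42.1% and 2.46%, and both member intervals included these values. Sites within 200 nt of the stop codon made up 15 of 24 (62.5%, 42.7% to 78.8%) against 33.3% over all such transcripts. The 33.3% lies below the member interval, but the difference was not tested. Sites of the same transcript are not independent, so the intervals of this paragraph cover counting error only and are too narrow to decide it. The member share of 62.5% came mainly from 4 genes. It was 9 of 12 in the CCN genes and 4 of 4 in WWTR1 and TEAD3, but 2 of 8 in AMOTL2. The last exon held 20 of the 24 sites (83.3%, 64.2% to 93.3%), against 76.5% over all such transcripts. The 4 exceptions were the 3 coding sites of AMOTL2 and the exon 3 site of CCN1.

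Pooled over the 5 genes with sites, where in the transcript a motif lay went with its listed share as it did over the whole list. In the first 200 nt of the 3' UTR, 8 of 24 motifs of these 5 genes were listed (33.3%), and 25.4% over all coding transcripts with a site. Farther along the 3' UTR the values were 5 of 151 (3.31%) and 6.43%. Coding motifs over 100 nt from an exon junction were listed in 6 of 30 cases (20%) and 18.2% over all such transcripts, and those within 100 nt of one in 3 of 107 (2.80%) and 2.43%. Single genes departed from the pooled shares. WWTR1 had 2 of 24 coding motifs within 100 nt of a junction listed, 0 of 3 farther from one and 0 of 5 in the first 200 nt of the 3' UTR. In CCN2, 0 of 7 coding motifs over 100 nt from a junction were listed. The 8 listed in the first 200 nt of the 3' UTR lay in AMOTL2, CCN1 and CCN2. The 5 genes without sites had motifs in each of these places too, 23 in the first 200 nt of the 3' UTR and 138 in coding sequence far from a junction, with 0 listed by definition. Region was an input of the classifier that made the list, so a part of these shares may come from it, which was not tested.

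The pentamers of the member sites were mixed. GAACT was the most frequent with 5 sites. GGACT had 4 sites and AGACT had 4. GGACA was found at 3 sites, and so was AGACA, and the 5 pentamers left were found once each. GGACT made up 4 of the 22 member sites at DRACH (18.2%, 7.31% to 38.5%), against 24.3% over all coding transcripts with a site. Consensus motifs accounted for 22 of 24 sites (91.7%, 74.2% to 97.7%), against 88.6%. Within the 5 genes with sites, 5 of 13 GAACT motifs were listed (38.5%, 17.7% to 64.5%) and 4 of 19 GGACT (21.1%, 8.51% to 43.3%). Over all coding transcripts with a site the shares were 16.9% for GAACT and 25.9% for GGACT. The pentamer of the weakest consensus site in CCN2, AAACA, was listed in 1 of 30 cases in these genes and in 0.877% over all such transcripts. Sequence, like region, was an input of the classifier, so a part of these motif shares may come from it, which was not tested.

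Prediction scores of the 24 sites had a median of 0.779 with quartiles of 0.722 and 0.859. All sites in coding transcripts had a median of 0.756 with quartiles of 0.642 and 0.848. The median and upper quartile were thus close, while the lower quartile was higher in the member sites, a difference that was not tested. The score is the classifier's output and does not measure the share of molecules modified. By role the median was 0.834 in the CCN genes, 0.821 in the coactivators, 0.753 in the scaffolds and 0.626 in the TEAD factors. The values for coactivators and TEAD factors rest on 2 sites each, both from 1 gene. Of the member sites, 7 were above the upper quartile of the full list and 4 were below its lower quartile. The 7 were in WWTR1, AMOTL2, CCN1 and CCN2, and the 4 were the TAATT site of TEAD3, the AGACA site in exon 3 of AMOTL2, and the TGATT and AAACA sites of CCN2. High and low scores therefore occurred in the same transcript, and in CCN2 side by side.

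**Figure D4:**
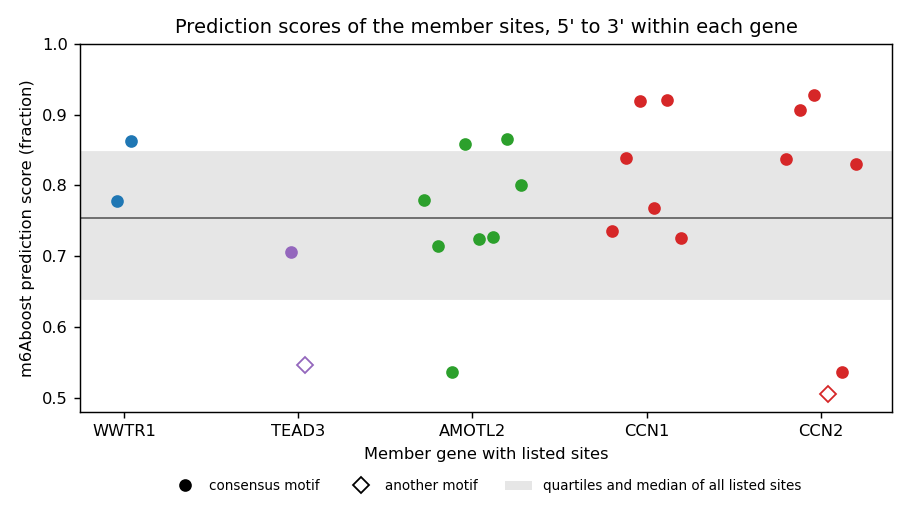
Prediction score (y axis, fraction) of each of the 24 member sites, ordered 5' to 3' within each gene, with the grey band and line giving the quartiles and median of all 18789 listed sites and open diamonds marking sites outside DRACH. The CCN genes hold the 4 highest scores, 0.907 to 0.927, and CCN2 also holds the lowest, 0.505.

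Neighbouring member sites lay a median of 154 nt apart, and 6 of the 19 gaps (31.6%, 15.4% to 54.0%) were at most 50 nt. Over all coding transcripts with a site the median gap was 96 nt and the share 32.3%. Short gaps were found in WWTR1, AMOTL2, CCN1 and CCN2. Pairs at most 4 nt apart, like the one in CCN2, made up 207 of 13879 neighbouring pairs.

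The base composition of the transcripts moved with which of them were listed, and the bins used for it were chosen after the values were seen. The GC content of the 5 genes with sites had a median of 51.5% and ranged from 42.2% to 59.8%, and that of the 5 without sites had a median of 43.5% and ranged from 39.0% to 51.8%. Over all protein-coding genes, the share with a listed site rose from 1.00% at a GC content of 35% to 40%, where LATS1 lies, to 4.06% at 40% to 45%, where YAP1, WWTR1 and TEAD1 lie. It was 12.2% at 45% to 50%, the range of AMOTL1, 28.5% at 50% to 55%, the range of LATS2, CCN1 and CCN2, and 38.3% at 55% to 60%, the range of TEAD3 and AMOTL2. None of the 10 genes lay higher, where the shares were 43.1% at 60% to 65% and 35.5% above that. WWTR1 was thus listed from a range of composition in which few genes were. LATS2 was unlisted in a range where 28.5% of genes had a site, so most genes there were unlisted too. Within each pair, the gene with sites had the higher GC content for TEAD3 (59.8% against 43.0% in TEAD1) and AMOTL2 (56.3% against 48.8% in AMOTL1), and the lower for WWTR1 (42.2% against 43.5% in YAP1). The part that composition, expression or transcript length played was not tested.

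**Figure D5:**
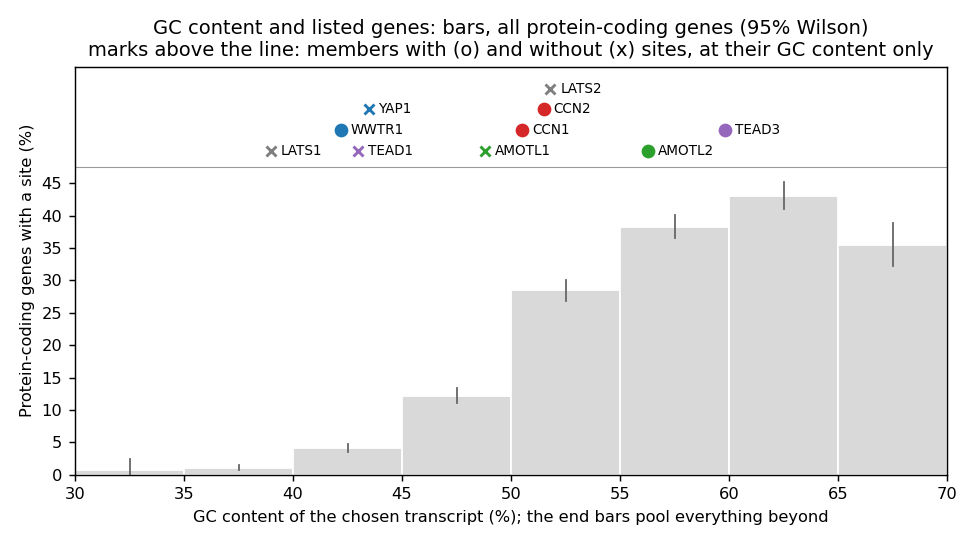
Percent of all protein-coding genes with at least 1 listed exonic site (bars from 0, 95% Wilson intervals as lines) by GC content of the chosen transcript (x axis, %), and above the horizontal line the 10 genes placed at their GC content only, circles with sites and crosses without. TEAD3 and AMOTL2 lie at 55% to 60%, where 38.3% of genes had a site, and LATS1 lies at 35% to 40%, where 1.00% did.

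Beyond the 10 genes, 10 of 48 other Hippo pathway genes had a listed site, 49 sites in all, which is 20.8% and near the 19.9% of all protein-coding genes. The core kinases and adaptors next to LATS, namely STK3, STK4, SAV1, MOB1A, MOB1B, STK38 and STK38L, had 0 sites in all 7 genes. Their transcripts have GC contents from 34.1% (MOB1B) to 45.6% (STK38). Of all protein-coding genes, 0.692% had a site below 35% GC and 1.00% at 35% to 40%. The shares were 4.06% at 40% to 45% and 12.2% at 45% to 50%, and the part of composition was not tested. Most of the 49 sites were in 5 genes. NF2, the tumour suppressor merlin that promotes LATS activation, had 10 sites, all in the 3' UTR, scoring 0.614 to 0.945. AJUBA, a LIM protein that inhibits LATS, also had 10, of which 6 were coding and 4 in the 3' UTR. TAOK2, an upstream kinase, had 7. PPP2R1A, a scaffold subunit of the phosphatase in the STRIPAK complex, had 7 as well, with low scores of 0.503 to 0.634. SIAH2, a ubiquitin ligase, had 5, all coding. Among further TEAD factors and cofactors 1 gene of 6 had sites, TEAD4 with 2 in the 3' UTR scoring 0.737 and 0.935.

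Other genes known as YAP and TAZ targets were listed in 5 of 17 cases, with 40 sites. ARHGEF17 had 18 sites, 12 coding and 6 in the 3' UTR, and FJX1, which encodes a secreted regulator of the Fat and Dachsous pathway, had 15, of which 10 were in the 3' UTR. The receptor tyrosine kinase AXL had 5, and GADD45A and NT5E had 1 each. The share was 29.4%, and 19.9% over all protein-coding genes, a difference that was not tested. With the 4 member genes that are also targets, namely CCN1, CCN2 and AMOTL2 with sites and LATS2 without, 8 of 21 targets had a site (38.1%).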

How the data were processed

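Per the labels and the study's methods, the authors aligned the miCLIP2 reads uniquely to GRCh38 with STAR 2.7.3a and removed duplicates with UMI-tools 1.0.0. Reads carrying C-to-T changes were separated with SAMtools 1.9, and bedtools 2.27.1 was used to make signal tracks. PureCLIP called peaks per replicate. Peaks found in at least 2 replicates and lying at an A were classified by m6Aboost, which uses the surrounding sequence, the transcript region, the strength of the signal within the gene and C-to-T changes. The deposited list holds the positive calls with a prediction score, a fraction from 0.50 to 1. It gives neither counts nor rejected peaks, so the depth behind each site is unknown from it, and all 18789 positions lay on an A.

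Sites were mapped with Python 3.11.15 and pysam 0.24.0 to GENCODE release 44, where the authors used release 31. The longest coding transcript with support level at most 2 and transcript support level at most 3, or none given, represented each gene. Distances run along the spliced transcript from the first base of the stop codon, whose bases count as coding. Shares have 95% Wilson intervals (scipy 1.17.1). The mapping was tested on simulated transcripts of both strands. All 10 genes were named. Sites were named singly where they had the highest or lowest score of a gene, lay outside DRACH, were closest together, or belonged to a CCN gene or a gene with few sites. The other lists name their 5 genes with most sites. Members and lists were chosen with earlier results of these data known. A look at marker genes for the labelled cell type is not reported here.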

Additional observations from a re-analysis of the deposited data

How the results depend on the processing

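Of 37 alternatives over 11 results, 29 stayed near the reported value and 8 moved further. Near meant a share within the 95% interval of the reported value, a median score within 0.724 to 0.858, or a count within 1.5 times. Sites within 200 nt of the stop codon became 81.2% without AMOTL2, the gene with most sites, so that share rests on which genes enter. With a window of 100 nt it was 33.3%, but a narrower window can only hold as many sites or fewer. No share over all coding transcripts was computed at 100 nt, so this value does not compare with their 33.3% at 200 nt. Without AMOTL2, 93.8% of sites lay in the last exon. With scores of at least 0.7, all 20 remaining sites were at DRACH (100%). The score draws on the surrounding sequence, so the score cut and the motif share are not independent. The share of motifs listed was 7.41% for GGACT alone over all 10 genes. Within the 5 genes with sites GGACT was listed in 21.1% of cases, against 25.9% over all coding transcripts with a site. For all DRACH motifs the share was 6.85% over the 5 genes with sites, an alternative chosen after seeing the data. Coding sites near a junction were 0% within 50 nt and 77.8% within 200 nt, again with no share over all transcripts at those windows. At scores of at least 0.7 the pathway genes with a site fell to 8. Ensembl canonical transcripts gave the same values for the members.

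The list is pooled over replicates, which were not left out in turn for that reason. No paired analysis was possible because all libraries belong to 1 group. The alignment of coding sites between paralogous proteins was not run, as no protein sequences were used here. In a gene without sites, low expression and absence of m6A cannot be told apart.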
